A study of Mus musculus with 3 samples.

Results

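Complement is a cascade of plasma and tissue proteins that recognises microbes and damaged cells. The classical pathway starts when C1q binds and its proteases C1r and C1s cleave C4 and C2, the lectin pathway starts from mannose-binding lectins and ficolins with the MASP proteases, and the alternative pathway amplifies through factor B, factor D and properdin. All routes cleave C3, release the anaphylatoxins C3a and C5a and can end in the membrane attack complex, while surface and soluble regulators restrain the cascade on host cells. Liver makes most circulating complement, macrophages are known for making C1q, and injured tissues, heart among them, also make components locally.

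The genes described here are the complement components, receptors and regulators, a list of 36 chosen by function. Earlier results of these data were known when it was chosen. A gene was included when the platform annotation named it, by its current or an older symbol, as the single gene of at least 1 probe. This left 33 of 19532 named genes, on 47 probes, and no ratios of C3, Cfd (factor D, adipsin) and C7 were analysed here. The list's C1s and Crry are the current C1s1 and Cr1l. Of the 33 genes, 24 had 1 probe and 9 had several, and 32 had a value in all 3 contrasts.

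Esmolol is a short-acting beta-1 adrenergic blocker, infused here at 20 mg/kg/h through a jugular catheter. Hearts of C57BL/6 mice were profiled on 2-colour microarrays in 3 contrasts of esmolol against no esmolol. They set esmolol against no treatment in animals without sepsis, esmolol with intraperitoneal lipopolysaccharide (LPS, a bacterial cell wall component) against LPS alone, and esmolol with cecal ligature and perforation (CLP, a gut-leak model of abdominal sepsis) against CLP alone. The series describes a 30 mg sample of the heart and 6 groups of 8 animals. Neither age, sex nor time of sampling is given in the sources used here. No contrast sets septic against non-septic hearts, so the effect of sepsis itself on complement cannot be read from these values.

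Each contrast was deposited as 1 log ratio per probe that merges 4 replicates with dye swaps. No replicate error, p-value or absolute level can be given for any gene, so every value below describes a merged ratio and no difference between conditions was tested. The ratios are read as log2, so 1.00 is a doubling, and a value above 0 means higher with esmolol. That direction follows the order of the titles. For CLP the title puts untreated hearts on top and the sign was turned, whereas the design text speaks of treated over untreated hearts throughout. If the deposited CLP values follow the design text, every CLP direction below reverses. The only error at hand is the SD between probes for 1 gene, pooled over all genes with several, which was 0.11 in non-septic, 0.24 in LPS and 0.10 in CLP hearts on the log2 scale and covers neither animals nor hybridizations. Of the 47 complement probes 4 were blank in non-septic hearts, 4 in LPS hearts and 5 in CLP hearts. In each column a single exact value recurred, at 359, 526 and 538 probes, and 4, 7 and 6 of 10 cardiomyocyte marker genes had a probe on it. Why it recurs was not tested, and it is not read as a measured ratio. Of the complement probes, only that of Clu lay on it, in LPS hearts.

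Few complement genes differed with esmolol by 1.5-fold or more, which is 0.585 on the log2 scale. In non-septic hearts none of 33 did, where 0.460% of all named genes were past that fold (0.219% higher and 0.241% lower). In LPS hearts 3 of 33 did (9.09%), where the share of all genes was 4.32% (2.06% higher and 2.26% lower). The C1q chain genes C1qa and C1qc were higher and the C1r gene C1ra lower. In CLP hearts 2 of 32 did (6.25%), where the share of all genes was 0.952% (0.819% higher and 0.133% lower). These were Cfb, which encodes factor B, and C1ra, both higher in the titled direction. The shares past 1.5-fold thus rest on 3 and 2 genes. The medians over the measured complement genes were -0.019, 0.056 and 0.043, beside medians of 0.0010, 0.00010 and -0.0049 over all named genes. Genes went both ways around these medians. The quartiles over the complement genes were -0.10 and 0.09 in non-septic, -0.23 and 0.20 in LPS and -0.02 and 0.17 in CLP hearts. Of those measured, 45.5%, 51.5% and 65.6% lay above 0, where 50.5%, 50% and 47.9% of all named genes did, and the CLP shares rest on the titled direction.

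**Figure D1:**
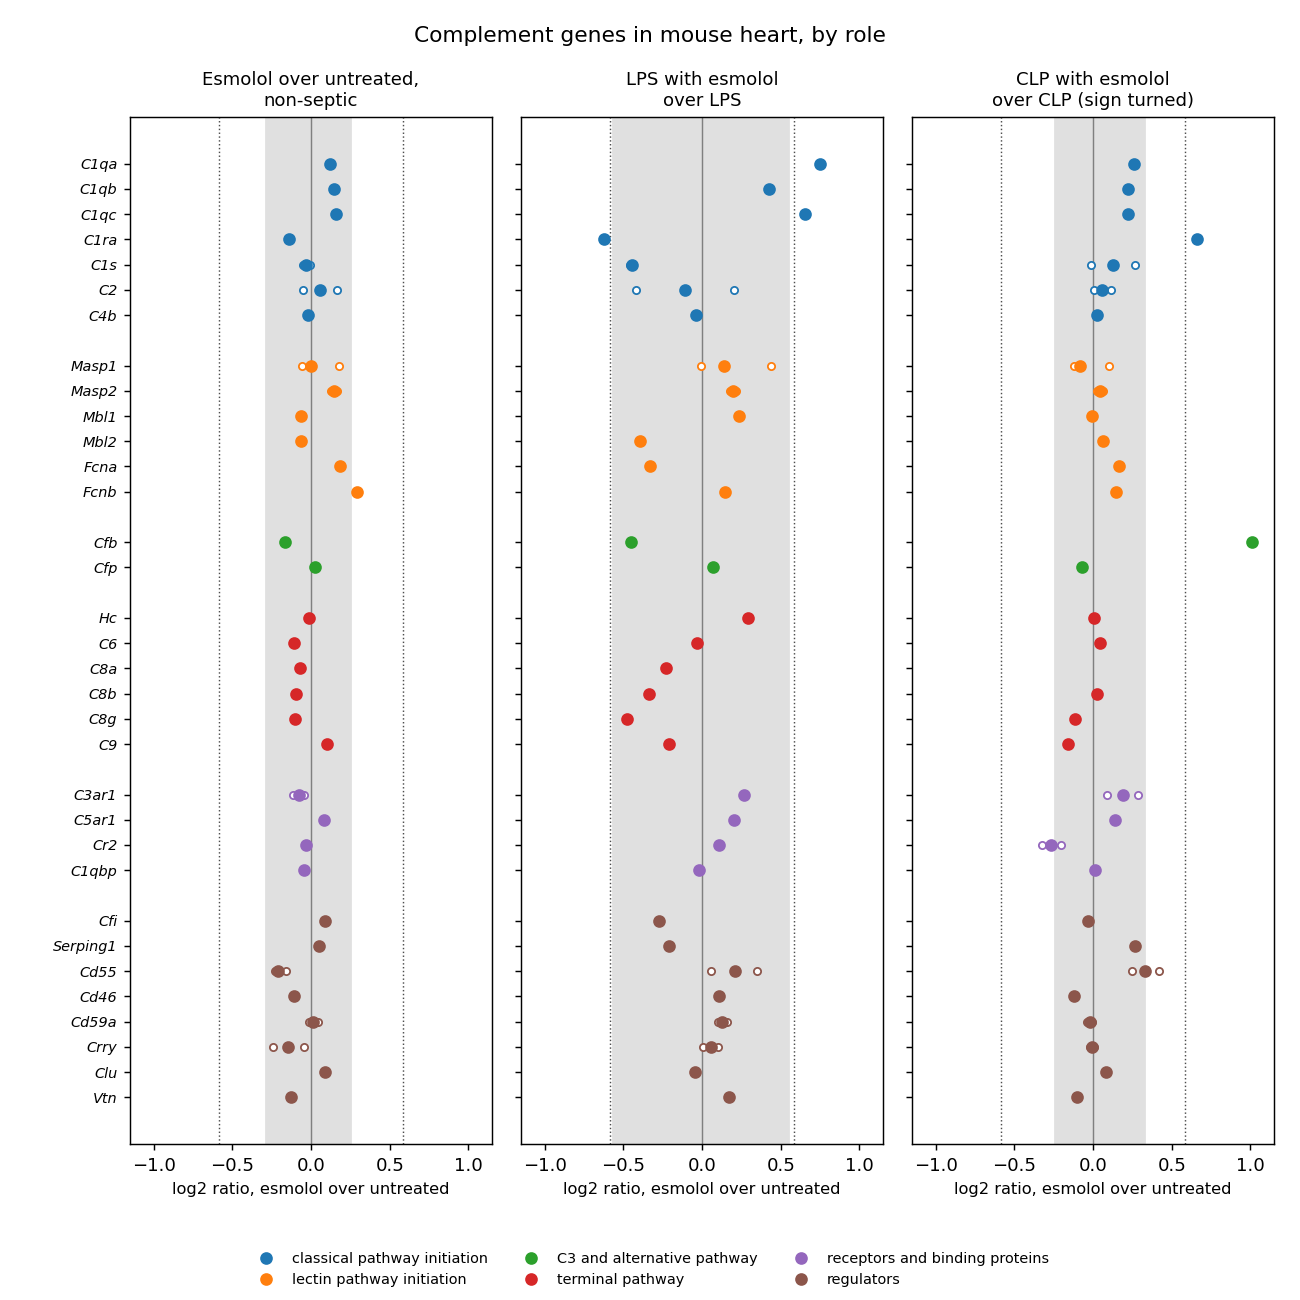
Log2 ratio of esmolol over untreated hearts for the 33 complement genes with a probe, by role, with a panel for each contrast. Filled points are the gene values (median over probes), open points single probes of genes with several, the grey band the central 95% of all named genes and the dotted lines 1.5-fold; C1qa, C1qc and C1ra in LPS hearts and Cfb and C1ra in CLP hearts lie beyond the lines.

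The promoters of C1qc and C1ra are shown because these genes, of those past 1.5-fold in any contrast, have an entry in the RefSeq promoter table. Each window runs from 250 bases before to 50 after the RefSeq start site in build GRCm38.p6, and capitals mark matches to the 4 motifs searched. C1qc lies on the minus strand at chr4:136892865-136893164 and C1ra on the plus strand at chr6:124512371-124512670.
C1qc: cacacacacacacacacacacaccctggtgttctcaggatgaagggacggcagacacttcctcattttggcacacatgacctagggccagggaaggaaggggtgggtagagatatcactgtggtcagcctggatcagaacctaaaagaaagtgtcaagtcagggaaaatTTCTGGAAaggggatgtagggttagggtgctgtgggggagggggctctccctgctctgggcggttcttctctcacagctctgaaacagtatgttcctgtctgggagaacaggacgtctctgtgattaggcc
C1ra: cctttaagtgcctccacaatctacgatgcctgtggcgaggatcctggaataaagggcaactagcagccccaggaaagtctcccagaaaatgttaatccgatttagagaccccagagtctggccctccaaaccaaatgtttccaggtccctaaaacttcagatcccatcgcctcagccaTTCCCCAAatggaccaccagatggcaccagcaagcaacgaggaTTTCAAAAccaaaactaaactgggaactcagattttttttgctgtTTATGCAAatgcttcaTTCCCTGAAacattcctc
The motifs, searched on both strands, were NF-kB (GGG, any 2 bases, then TTTCC), GAS, the STAT site (TTCNNNGAA), ISRE, the interferon response element (GAAA, any 2 bases, then GAAA), and C/EBP (TTNNGNAA), and they may overlap. The C1qc window held 1 C/EBP match. The C1ra window held 1 GAS match and 3 C/EBP matches. Of 27025 genes with at least 1 promoter window of this length, 1.89% held the NF-kB, 9.55% the GAS, 3.99% the ISRE and 44.1% the C/EBP letters. Among the 28 listed genes with a promoter in the RefSeq table, 1 held the NF-kB letters (C3ar1, 3.57%), 5 GAS (17.9%), 3 ISRE (10.7%) and 13 C/EBP (46.4%). A match describes letters and not binding. Those 28 include neither C1qa nor Cfb, but do include C3, Cfd and C7, whose ratios were not analysed.

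The 3 genes of C1q, the recognition molecule of the classical pathway, had ratios above 0 in every contrast. C1qa, the A chain, was at 0.12 in non-septic, 0.75 in LPS and 0.26 in CLP hearts. C1qb, the B chain, was at 0.15, 0.43 and 0.22 in the same order. C1qc, the C chain, was at 0.16, 0.65 and 0.22. The LPS ratio was thus the highest of the 3 for each chain, and the 3 chains lay close together in non-septic (0.12 to 0.16) and CLP hearts (0.22 to 0.26). In LPS hearts C1qa was 1.68-fold and C1qc 1.57-fold higher, ranking 145 and 251 from the top among 17733 genes. C1qb was 1.34-fold higher and ranked 1033 there, whereas in CLP hearts it ranked 907 of 17339. Ratios of all named genes spread more widely in LPS hearts (SD 0.28) than in non-septic (0.14) and CLP hearts (0.16). Each chain had a single probe. The 3 genes are neighbours on chromosome 4, where neighbours are genes with at most 2 other protein-coding genes between them.

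Macrophages are a known source of C1q, so their markers are given beside it. In LPS hearts 3 of 11 measured markers were higher by 1.5-fold or more and none lower, where 2.06% of all named genes were higher. Of these markers, 5 lay below 0, and the median was 0.10, with a range from -0.36 (Cx3cr1) to 0.89 (Cd163). In CLP hearts 2 of 11 were higher, where 0.819% of all named genes were. The marker median there was 0.21, with a range from -0.10 (Cd163) to 0.92 (Adgre1). In non-septic hearts none of 11 reached that fold, and the median was 0.02. Their part in the C1q ratios was not tested. In a piece of heart tissue, more cells of a type and more RNA per cell cannot be told apart.

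The genes of the C1 proteases had ratios of the opposite sign in LPS hearts. C1ra, which encodes C1r, the protease that C1q activates first, was at -0.14 in non-septic, -0.62 in LPS and 0.66 in CLP hearts. It was 1.54-fold lower with esmolol in LPS and 1.58-fold higher in CLP hearts. C1ra ranked 343 from the bottom of 17733 genes in LPS and 100 from the top of 17339 in CLP hearts. C1s (C1s1), the protease that C1r activates, was at -0.031 in non-septic, -0.45 ± 0.01 in LPS and 0.13 ± 0.20 in CLP hearts (SD between probes, n = 2 probes). Both C1s probes were near -0.45 in LPS hearts, at -0.44 and -0.46, whereas in CLP hearts they were at -0.015 and 0.27. C1ra and C1s therefore lay below 0 in LPS hearts while the C1q chains lay above 0, and all of them lay above 0 in CLP hearts.

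Beside C1ra and C1s on chromosome 6 stand their mouse copies C1rb and C1s2 and the related C1rl, named for their position after their values were seen. C1rb was at 0.023 in non-septic, -0.16 in LPS and 0.080 in CLP hearts. C1s2 was at 0.10, -0.35 and 0.21. Both copies thus had the signs of C1ra in LPS and CLP hearts, at smaller size. C1rl was at 0.037, 0.33 and 0.060, and was the one gene of these 5 above 0 in LPS hearts. C1r and C1s copies are alike in sequence, and which of them a probe reads was not tested.

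**Figure D2:**
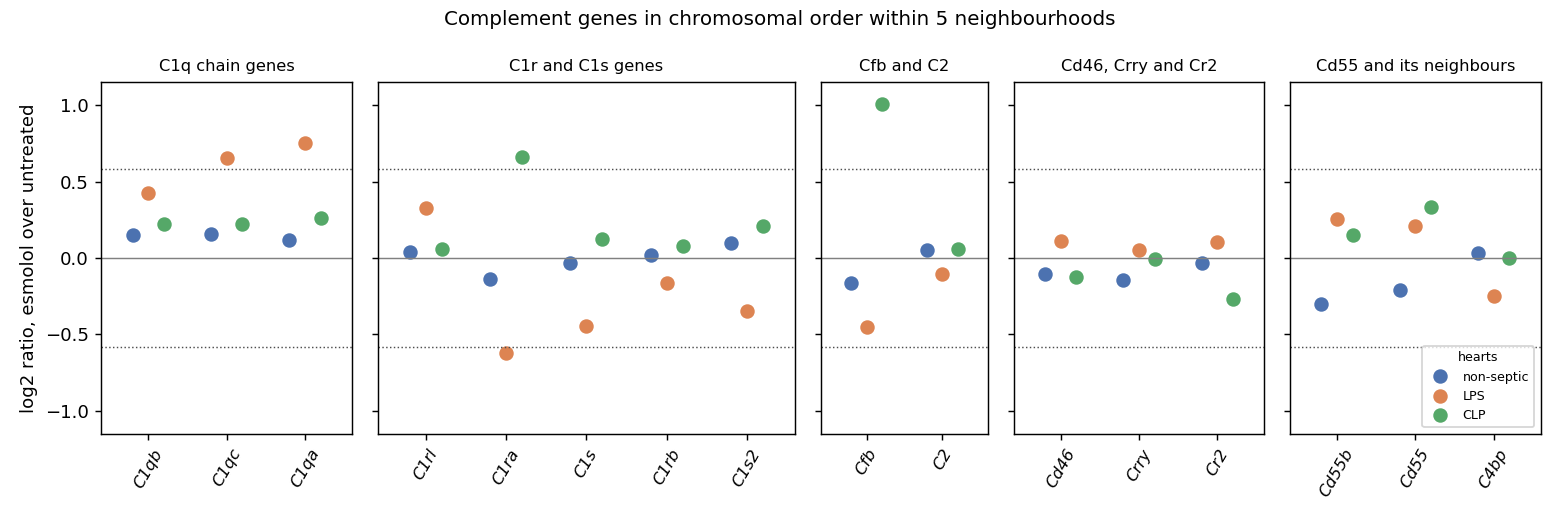
Log2 ratio of esmolol over untreated hearts for a selection of the complement genes that are close neighbours, in chromosomal order. Neighbours have at most 2 other protein-coding genes between them. Each point is 1 merged ratio and the dotted lines are 1.5-fold; the C1q genes lie between 0.43 and 0.75 in LPS hearts, whereas C1ra, C1s, C1rb and C1s2 lie between -0.62 and -0.16.

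The listed genes of the C1s substrates, C2 and C4b, had gene values within 0.11 of 0. C2, which supplies the protease part of the classical C3 convertase, was at 0.054 in non-septic, -0.11 ± 0.44 in LPS and 0.060 in CLP hearts (n = 2 probes). Its probes disagreed in LPS hearts, at 0.20 and -0.42, the largest gap within any complement gene (0.62). C4b, the mouse C4 gene, was at -0.019, -0.041 and 0.022 from 1 probe. C4a, a near-identical copy of C4b named after its values were seen, was at 0.080, 0.26 and 0.56. Whether each probe reads only its own copy was not tested, so the values of C4b and C4a are uncertain.

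No lectin pathway gene reached 1.5-fold in any contrast. The mannose-binding lectins Mbl1 and Mbl2, which bind microbial sugars, were at 0.23 and -0.39 in LPS hearts, on either side of 0, and within 0.07 of 0 in non-septic and CLP hearts. The ficolin Fcna was at 0.18 in non-septic, -0.33 in LPS and 0.16 in CLP hearts. The ficolin Fcnb, a neutrophil granule gene, was at 0.29, 0.15 and 0.15, and its non-septic ratio was the highest of any complement gene in that contrast, rank 319 of 17814. Masp2, the protease that cleaves C4 and C2 in this pathway, was at 0.15, 0.20 and 0.043 (n = 2 probes). Masp1, the protease that activates it, was at 0.0013, 0.14 and -0.083 (n = 3 probes), with probes on both sides of 0 in every contrast. The lectin group had medians of 0.07, 0.14 and 0.05.

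Factor B stood out in the alternative pathway. Cfb, whose product forms the alternative C3 convertase, was at -0.17 in non-septic, -0.45 in LPS and 1.01 in CLP hearts. The CLP ratio is 2.01-fold higher with esmolol, the largest of any complement gene in any contrast, and ranked 43 from the top of 17339 genes. In LPS hearts Cfb was 1.36-fold lower, short of 1.5-fold. It rests on 1 probe. C2, the classical counterpart of factor B and its neighbour on chromosome 17, was at 0.060 in CLP hearts. Cfp encodes properdin, which stabilises the alternative convertase, and was at 0.028, 0.072 and -0.068.

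Cfb and C1ra were the complement genes past 1.5-fold in CLP hearts, and markers of several cell types were higher there too. Of all named genes, 0.819% were higher by 1.5-fold or more in CLP hearts. Atrial markers had 7 of 8 genes higher, with a median of 1.83 (range 0.11 to 2.69). Mesothelial markers had 2 of 7 higher (median 0.22, range -0.0055 to 0.82), fibroblast markers 1 of 9 (median 0.26, range -0.079 to 0.71) and adipocyte markers 2 of 10 (median 0.04, range -0.23 to 2.40). Hepatocyte markers had 0 of 8 past 1.5-fold, with a median of -0.05 and a range from -0.09 to 0.40. In LPS hearts, where C1ra was lower, 5 of 8 atrial markers were lower (median -0.88). None of 7 mesothelial markers was past 1.5-fold there (median -0.20), and 1 of 9 fibroblast markers was higher (median -0.06). Of all named genes in LPS hearts, 2.26% were lower and 2.06% higher. The part of these cell types in the Cfb and C1ra ratios was not tested.

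The terminal pathway, which builds the membrane attack complex, had ratios within 1.5-fold throughout. Hc, the mouse gene of C5, was at -0.013 in non-septic, 0.29 in LPS and 0.0068 in CLP hearts. The C8 chain genes were all below 0 in LPS hearts, with C8a at -0.23, C8b at -0.33 and C8g at -0.48. C8a and C8b are neighbours on chromosome 4. In non-septic hearts the 3 C8 genes were at -0.068, -0.095 and -0.10, and in CLP hearts C8b and C8g were at 0.028 and -0.11 and C8a was blank. C6 was at -0.11, -0.029 and 0.044, and C9, which polymerises into the pore, at 0.10, -0.21 and -0.16. In LPS hearts 5 of 6 terminal genes were thus below 0, with a median of -0.22. Most of these genes are known as liver genes. Hepatocyte markers in the same contrast had 1 of 11 higher and 1 lower, where 2.06% and 2.26% of all named genes were. The hepatocyte markers had a median of 0.01 and a range from -0.65 (Fga) to 0.75 (Ahsg). Their part in the terminal gene ratios was not tested.

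The anaphylatoxin receptor genes C3ar1 and C5ar1 had ratios above 0 in both septic contrasts, within 1.5-fold. C3ar1, the C3a receptor of myeloid cells, was at -0.077 in non-septic, 0.27 ± 0.0018 in LPS and 0.19 ± 0.14 in CLP hearts (n = 2 probes). C5ar1, the main C5a receptor, was at 0.081, 0.20 and 0.14. Neutrophils carry this receptor, and neutrophil markers had 0 of 8 above 0 in CLP hearts (median -0.26). Of these 8, 2 were lower by 1.5-fold, where 0.133% of all named genes were. In LPS hearts 5 of 9 neutrophil markers were above 0 (median 0.04). Macrophage markers had 8 of 11 above 0 in CLP hearts (median 0.21) and 6 of 11 in LPS hearts (median 0.10). The part of these cell types in the C3ar1 and C5ar1 ratios was not tested. Cr2, the C3d receptor of B cells, was at -0.031, 0.11 and -0.27 ± 0.09 (n = 2 probes in CLP hearts), the lowest complement ratio in CLP hearts. B cell markers there had a median of -0.04, with 0 of 7 past 1.5-fold and a range from -0.22 to 0.08. C1qbp, a mainly mitochondrial protein that binds C1q, was at -0.047, -0.021 and 0.0098.

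Among regulators, Cd55 had the lowest complement ratio in non-septic hearts and the highest regulator ratios in septic ones. Cd55, which speeds the decay of C3 convertases on host cells, was at -0.21 ± 0.04 in non-septic (n = 3 probes), 0.21 ± 0.14 in LPS (n = 3) and 0.33 ± 0.12 in CLP hearts (n = 2). Every measured Cd55 probe was below 0 in non-septic hearts (-0.23, -0.21 and -0.16) and above 0 in LPS (0.35, 0.21 and 0.06) and CLP hearts (0.42 and 0.25). Its copy Cd55b, a neighbour on chromosome 1 named after its values were seen, was at -0.30, 0.25 and 0.15. Cd55b thus had the signs of Cd55 in each contrast. The other neighbour of Cd55 there, C4bp, also named after its values were seen, was at 0.03, -0.25 and -0.0017. C4bp thus had the opposite sign of Cd55 in each contrast. None of these ratios reached 1.5-fold.

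Serping1, which encodes the C1 inhibitor that blocks C1r and C1s, was at 0.05 in non-septic, -0.21 in LPS and 0.27 in CLP hearts. It had the signs of C1ra in both septic contrasts, at smaller size. Cfi, the factor I protease that degrades C3b and C4b, was at 0.09, -0.28 and -0.033. The membrane cofactors Cd46 and Crry, neighbours of Cr2 on chromosome 1, were at -0.11 and -0.14 in non-septic, 0.11 and 0.056 in LPS and -0.12 and -0.0057 in CLP hearts. Cd59a, which blocks the membrane attack complex, was at 0.013, 0.13 and -0.020. Its copy Cd59b, a neighbour on chromosome 2 named after its values were seen, was at -0.056, -0.18 and 0.080. Cd59b thus had the opposite sign of Cd59a in each contrast. Of the soluble inhibitors of the membrane attack complex, Vtn (vitronectin) was at -0.13, 0.17 and -0.10. Clu (clusterin) was at 0.087 in non-septic and 0.083 in CLP hearts. The LPS value of Clu, -0.043, is the recurring one. Regulator medians were -0.05, 0.08 and -0.01, the LPS one with Clu included.

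LPS and CLP hearts, which share no samples, were set side by side. Of 32 genes measured in both, 20 had opposite signs (62.5%), where 52.1% of all named genes did. With the CLP sign as deposited, 12 of 32 would have opposite signs (37.5%), where 47.9% of all named genes would. Of the 20 with opposite signs in the titled direction, 12 were below 0 in LPS and above 0 in CLP hearts, led by Cfb and C1ra. The other 8 went the other way round. Clu is counted among those below 0 in LPS hearts, where its value is the recurring one. Of the 12 with the same sign, 9 were above 0 in both, the C1q chains, C3ar1, C5ar1 and Cd55 among them. As a description, Pearson's r over the 32 genes was -0.19 and Spearman's rho 0.04, beside -0.18 and -0.08 over 17089 named genes, and r was -0.023 without Cfb. Genes share the hybridizations of a contrast and are not replicates, and r is 0.19 if the CLP sign is not turned.

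**Figure D3:**
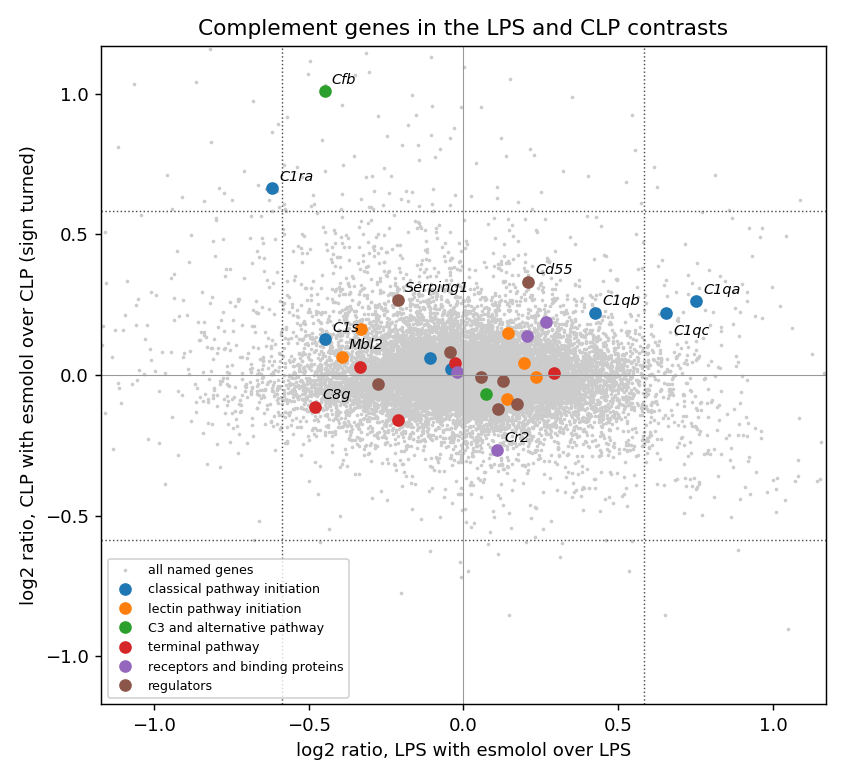
Log2 ratio with esmolol in LPS hearts (horizontal) against that in CLP hearts (vertical, sign turned as titled) for 32 complement genes, coloured by role, over all named genes in grey. Dotted lines are 1.5-fold; Cfb (-0.45 and 1.01) and C1ra (-0.62 and 0.66) lie at the upper left and the C1q chains at the right, and 74 of 17089 genes fall outside the axes.

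A second list held 30 other complement genes, of which 27 were measured in non-septic, 25 in LPS and 26 in CLP hearts. In non-septic hearts 1 was lower by 1.5-fold and none higher (3.7%, beside 0.460% of all named genes in either direction). In LPS hearts likewise 1 was lower and none higher (4%, beside 4.32%). In CLP hearts 2 were higher and none lower (7.69%, beside 0.952%). The medians were 0.01, -0.0077 and 0.08. C5ar2, the second C5a receptor, was at -0.12 in non-septic, -0.98 in LPS and 0.083 in CLP hearts. Its ratio in LPS hearts was the lowest of the list, while that of its chromosomal neighbour C5ar1 was above 0. Itgam, the alpha chain of complement receptor 3 on myeloid cells, was at 0.12, 0.56 ± 0.06 and 0.80 ± 0.13 (n = 2 probes). Ptx3, a long pentraxin that binds C1q, was at -0.97 ± 1.20, -0.52 ± 0.53 and 0.70 ± 0.27 (n = 2 probes). The probes of Ptx3 had the same sign in each contrast but very different sizes in non-septic hearts, -1.82 and -0.13.

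**Figure D4:**
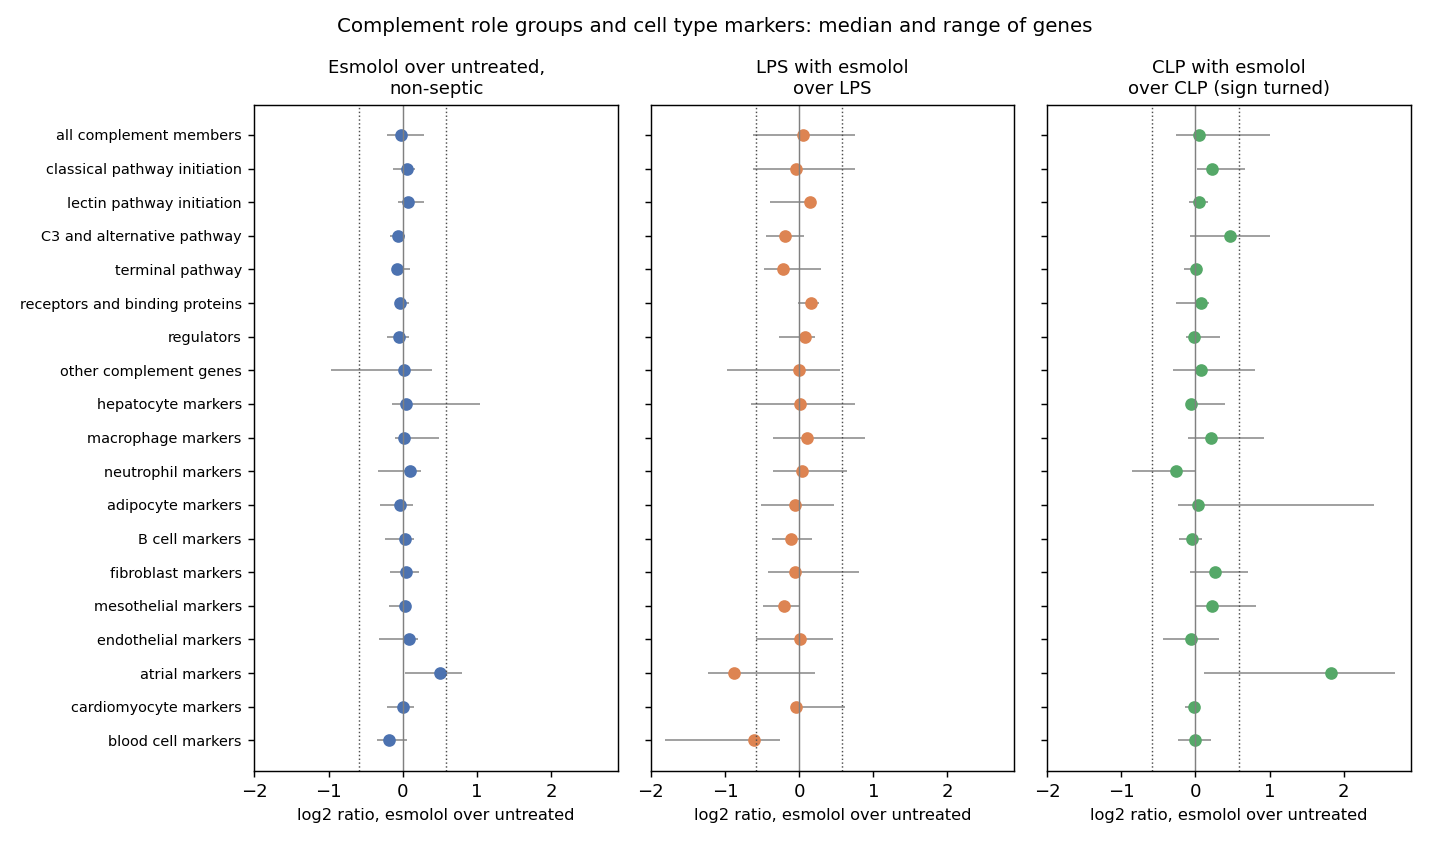
Median (point) and range from the lowest to the highest gene (line) of log2 ratios, esmolol over untreated, for the complement role groups, the other complement genes and 11 cell type marker lists in each contrast. Role group medians lie between -0.22 and 0.47, whereas atrial markers lie at 0.51 (non-septic), -0.88 (LPS) and 1.83 (CLP). The 0.47, in CLP hearts, is the median of only 2 measured genes, Cfb (1.01) and Cfp (-0.068). Dotted lines are 1.5-fold.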

How the data were processed

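Hearts were measured on 2-colour arrays, and the deposited table holds 1 value per probe for each of 3 contrasts, each merging 4 replicates with dye swaps per the labels. The deposited values were taken as log2 ratios. Base 2 is an assumption, and the base, scanner, background correction, normalization and filter are not stated by any source used here. Depth has no counterpart in merged ratios, and the number of arrays limits the precision.

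The CLP sign was turned as titled. Of 41174 probes, 32664 named 1 gene on the platform, 45 several and 8465 none here. Symbols were updated through gene IDs to RefSeq GRCm38.p6 (32524 matched), and probes collapsed by the median. Genes were counted from 1.5-fold on. With 1 merged value per contrast no test was possible. Members and lists were chosen with earlier results of these data known. Genes named by rule are all members, other complement genes past 1.5-fold, and the extremes of 11 marker lists. These lists are hepatocyte, macrophage, neutrophil, adipocyte, B cell, fibroblast, mesothelial, endothelial, atrial, cardiomyocyte and blood cell. C1rb, C1s2, C1rl, C4a, Cd55b, C4bp and Cd59b were named as copies or neighbours of members after their values were seen. The atrial markers Dkk3 and Myl4 were likewise named after their values were seen. Collapsing and counting were tested on simulated data. Python 3.11.15, pandas 2.3.3 and numpy 2.4.6 were used.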

Additional observations from a re-analysis of the deposited data

Results flagged for a closer look

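Members, other complement genes, list medians and the lowest and highest genes of each marker list were checked. The results below were past 1.5-fold in opposite directions in 2 contrasts. Each is a difference of merged log2 ratios without replicate values, and the difference was not tested. All that involve CLP hearts rest on the titled direction.

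C1ra was at -0.62 in LPS and 0.66 in CLP hearts, a difference of -1.28, and was the one member of the complement list so placed. Ptx3 was at -0.97 in non-septic and 0.70 in CLP hearts, a difference of -1.68. The neutrophil gene Retnlg was at 0.65 in LPS and -0.85 in CLP hearts, a difference of 1.503.

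The atrial marker list had medians of -0.88 in LPS and 1.83 in CLP hearts, a difference of -2.71. Among its genes, Sln differed by -3.62 between LPS (-1.20) and CLP (2.42) hearts and by 2.00 between non-septic (0.80) and LPS hearts. Myl7 differed by -3.48 between LPS (-1.23) and CLP (2.25) hearts and by 1.91 between non-septic (0.68) and LPS hearts. Bmp10 was at -0.79 in LPS and 2.69 in CLP hearts, a difference of -3.48. The atrial markers Dkk3 and Myl4 were not among the genes checked but were so placed too. Dkk3 was at 0.61 in non-septic, -1.01 in LPS and 2.11 in CLP hearts, and Myl4 at 0.70, -0.98 and 1.55.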

How the results depend on the processing

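With the CLP sign as deposited, the 2 CLP genes past 1.5-fold were both lower, Cfb at -1.01 and C1ra at -0.66, the CLP median was -0.043 and Pearson's r between LPS and CLP was 0.19. Without Cfb that r was -0.023. At a threshold midway between equal expression and 1.5-fold, 0 members were past the threshold in non-septic, 10 in LPS and 3 in CLP hearts, beside 3.0%, 21.2% and 3.75% of all genes (the 10 in LPS hearts are 30.3%). At 2-fold there were 0, 0 and 1, beside 0.0954%, 0.603% and 0.254%. Read as log10, the values put 3, 20 and 9 members past 1.5-fold, beside 13.2%, 46.7% and 13.3% of all genes, and read as natural logarithms 0, 7 and 2, beside 1.58%, 13.0% and 2.29%. Leaving out probes on the recurring value, averaging probes, taking the probe with the largest absolute value, centring columns, keeping genes measured in all 3 contrasts and using platform symbols as given left these counts at 0, 3 and 2. Over these alternatives and without the farthest member, medians ranged from -0.025 to -0.016 in non-septic, 0.018 to 0.072 in LPS and 0.043 to 0.053 in CLP hearts. No paired analysis was possible because each contrast is 1 merged value, and for the same reason no replicate could be left out.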

Other observations

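Some marker lists have no counterpart among the complement genes described. In LPS hearts 3 of 5 measured blood cell markers were at least 1.5-fold lower with esmolol (median -0.61), where 2.26% of all named genes were. The platelet chemokine Ppbp was lowest at -1.81. In non-septic and CLP hearts none of 6 blood cell markers was past that fold (medians -0.18 and -0.01). Endothelial markers had none of 9 past 1.5-fold in any contrast, with medians of 0.09 in non-septic, 0.01 in LPS and -0.06 in CLP hearts. Kdr, the VEGF receptor of endothelial cells, was the lowest of them in non-septic (-0.32) and CLP (-0.44) hearts and the highest in LPS hearts (0.46). Adipocyte markers had medians of -0.03 in non-septic and -0.06 in LPS hearts, with none past 1.5-fold. Cardiomyocyte markers had medians of 0.0083, -0.043 and -0.020, each of which is the recurring value of its contrast. None of 10 was past 1.5-fold in non-septic and CLP hearts. In LPS hearts 1 of 10 was higher, where 2.06% of all named genes were. It was Tnnt2 at 0.62, with 1 probe on the recurring value and the other at 1.28.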
